A study of Mus musculus with 2 samples.

Results

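The genes described are 10 ligands and helpers of immune checkpoints, chosen by name: Cd274, Pdcd1lg2, Cd80, Cd86, Cd276, Vtcn1, Cmtm6, Cd47, Nectin2 and Nt5e. They are 10 of 54438 genes summed from the deposited transcript tables, and all 10 were found there, with 33 listed transcripts. The series holds 2 RNA libraries, titled W1 and W2, from cells labelled as mammary basal cells, the outer epithelial layer of the mammary gland. Both libraries carry the same labels: wild type C57BL/6 mice, 8 weeks of age, mammary gland, cells isolated by flow sorting, with no transgene and no drug named. The series title names Smart-seq II, which copies whole transcripts from very small inputs, and the labels add a stranded KAPA library kit. It also names Pdl1+ and Pdl1- basal cells, but no label says which library is which, and no measured value was used to assign them. The values are therefore those of 2 single libraries side by side, with no replicate, no test and no p-value. The sources used here do not say which antibodies and gates were used, how many mice or cells went into each, or whether animals were pooled.

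Immune checkpoint ligands are surface proteins that tell T cells, natural killer cells or macrophages to hold back. Pd-l1, the product of Cd274, binds the receptor Pd-1 on T cells and is induced in many epithelial and endothelial cells by interferon gamma. The other genes encode its relatives of the B7 family, a membrane protein that keeps Pd-l1 at the cell surface, and ligands or enzymes of separate inhibitory routes.

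The depth, read from the spacing of the deposited values, was 3055838 reads in W1 and 3800026 in W2. A single predicted gene, Gm23935, took 27.7% of all TPM (a level scaled to transcript length and to the library's total) in W1 and 4.13% in W2, which lowers the TPM of every other gene in W1. The label of basal cells could be checked against 12 basal markers, of which 8 had reads in W1 and 11 in W2, with summed levels of 276.5 and 37082 TPM. Krt5, a keratin of the basal layer, had 0 reads in W1 and 3923 in W2. Krt14 had 1 and 6230 reads in W1 and W2, Krt17 2 and 60537, and Acta2 37 and 112934. Tagln had 13 and 15938 reads, and Cnn1 0 and 4256. By the 2-fold rule given below, 11 basal markers were compared, 9 higher in W2, 0 higher in W1 and 2 within 2-fold. On most of these markers W1 goes against its label. The sum in W1 came mostly from the integrins Itga6 and Itgb1 (140.0 and 81.8 TPM), and Trp63, a defining basal factor, had 0 reads in both. Trp63 has 8 listed transcripts, and how reads shared between transcripts were counted is not stated. For it and for other genes with several transcripts, 0 reads need not mean absence. Endothelial markers had the opposite distribution, with reads on 12 of 12 in W1 and 3 of 12 in W2, and summed levels of 4929 and 7.14 TPM. Tie1, Tek and Vwf were under 1 TPM in both, with 2, 1 and 12 reads in W1. Pecam1 and Cdh5, which define endothelial cells, had 0 reads in W2. Luminal markers summed to 283.1 and 5019 TPM in W1 and W2, with 0 and 9404 reads on Epcam, and fibroblast markers to 3.19 and 206.3 TPM. Most of the luminal sum in W1 was Cd24a (251.2 and 673.1 TPM), and Kit went the other way, with 67 reads (25.5 TPM) in W1 and 0 in W2. Markers of macrophages and dendritic cells had reads on 4 of 9 genes in W1 and 2 of 9 in W2, summing to 55.8 and 7.17 TPM. Lyz2 made most of the sum in W1 (46.6 TPM, 186 reads, against 0 in W2), Csf1r stood at 8.57 and 6.90 TPM (122 and 99 reads), and Adgre1, Itgax, Itgam, Flt3 and Cd74 had 0 reads in both. Lymphocyte markers had reads on 2 of 9 genes in W1 and 0 of 9 in W2, with Cd79a at 32.8 and 0 TPM and Cd3e at 0 in both. Pericyte markers summed to 59.2 and 56.6 TPM, of which Rgs5 made 59.2 and 51.3, while Pdgfrb, Cspg4 and Kcnj8 had 0 reads in both. Adipocyte markers summed to 7.92 and 3.96 TPM, mostly Fabp4 in W1 (7.68 TPM) and Car3 in W2 (3.36 TPM). Adipoq and Plin1 had 0 reads in both. Lymphatic endothelial markers had reads on 6 of 6 genes in W1 and 3 of 6 in W2, with summed levels of 13139 and 8078 TPM and 0 reads on Lyve1, Prox1 and Flt4 in W2. Most of both sums was Ccl21a, at 10177 and 7543 TPM, and Pdpn stood at 437.9 and 531.5 TPM, both within 2-fold, while Reln was higher in W2 (0.056 and 4.43 TPM). The part of these cell types in the results below was not tested, and in bulk RNA a smaller share of cells of one type and less RNA per cell cannot be told apart.

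Of the 10 genes, 7 reached 1 TPM in at least 1 library. A ratio is given as the log2 of TPM + 1 in W1 over TPM + 1 in W2, and a gene was counted as higher in a library at 2-fold or more on that scale. By this rule Cd274, Cd47 and Nectin2 were higher in W1, Cd276 and Vtcn1 were higher in W2, and Cmtm6 and Nt5e lay within 2-fold. Across the series 67.6% of 12587 compared genes passed 2-fold, 34.7% toward W1 and 32.9% toward W2. The 5 of 7 compared checkpoint genes past 2-fold are thus near the share of all genes, and their median log2 ratio of 0.09 stood beside -0.07 for all compared genes. Together the 10 genes made up 658 TPM (6924 reads) in W1 and 207.2 TPM (2169 reads) in W2. Intervals below are exact 95% intervals on reads. They and the floor of 3 reads, used where a library had none, cover counting error only, since no molecular identifiers are named.

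**Figure D1:**
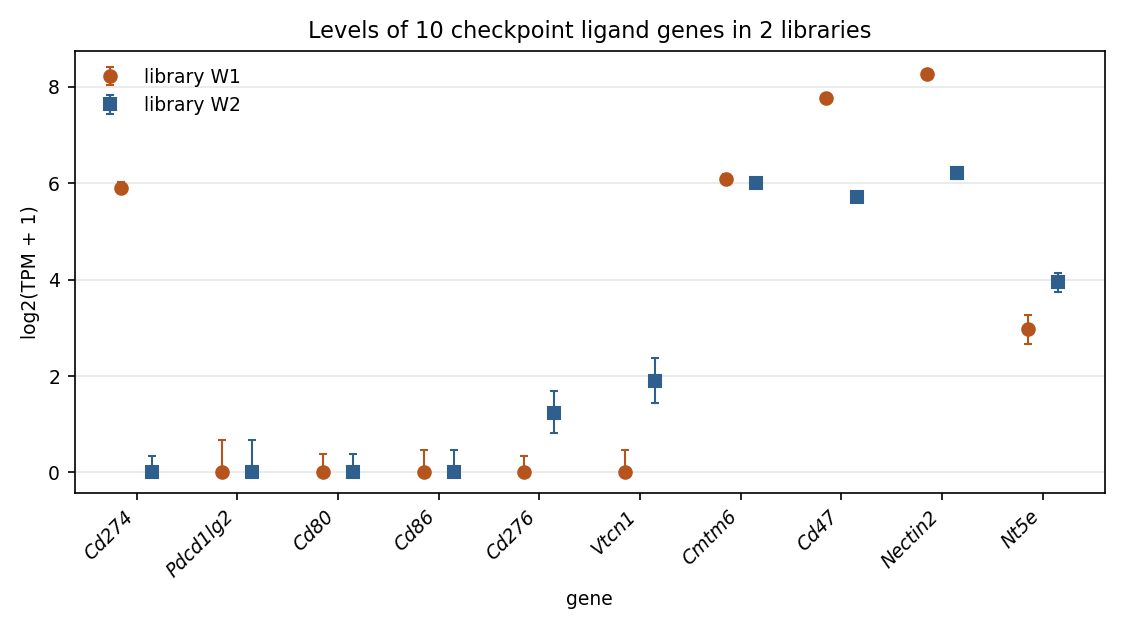
Levels of the 10 genes as log2(TPM + 1) in W1 (circles) and W2 (squares), 1 library each. Bars are exact 95% Poisson intervals on reads, with 3 reads as the upper end where a library had none. Cd274 is at 59.1 TPM in W1 and 0 in W2, Cmtm6 is at nearly the same height in both, and Pdcd1lg2, Cd80 and Cd86 are at 0 in both.

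Cd274 and Pdcd1lg2 encode the Pd-1 ligands Pd-l1 and Pd-l2 and lie next to each other on chromosome 19. Cd274 (ENSMUSG00000016496.7, GRCm38 chromosome 19, 29367455 to 29388095, plus strand) was read 649 times in W1, 59.1 TPM with an interval of 54.7 to 63.9, and 0 times in W2. The floor of 3 reads in W2 corresponds to 0.272 TPM, and the measured 59.1 TPM in W1 was 218 times that. This figure leaves out the interval in W1, so it is not a lower bound. The log2 ratio was 5.91, a value set largely by the pseudocount, since it was 9.21 with a pseudocount of 0.1 and 3.68 with 5. The endothelial markers given above had reads mainly in the same library, and their part in the level of Cd274 was not tested. Its single listed transcript has 3513 of its 3573 50-mers (stretches of 50 bases) in no other listed transcript. An antisense gene, AC119228.1, overlaps 511 bases of its exons and is not among the tables' identifiers, so reads from it, if any, cannot be told from Cd274 unless the counting used strand. Absence from one library of a gene at this level in the other was found for many genes. Among 585 genes with 1 listed transcript and between 29.6 and 118.3 TPM in W1, 78 had 0 reads in W2 (13.3%). In the reverse direction, 75 of 676 such genes in W2 had 0 reads in W1 (11.1%). The genes closest to Cd274 in level over the 2 libraries were C1ql3 (60.7 TPM in W1), Mir1954 (57.6), Ctla2a (61.5), Xlr5c (56.8) and Papss2 (56.6), all with 0 reads in W2. Likeness here was the distance between log2(TPM + 1) values, and with only 2 libraries it says no more than that the levels are similar.

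Pdcd1lg2 (ENSMUSG00000016498.10, chromosome 19, 29410919 to 29471161, plus strand) had 0 reads in both libraries. All 1600 of its 1600 50-mers are its own. The floor of 3 reads allows up to 0.60 TPM in W1 and 0.596 TPM in W2. The start of Pdcd1lg2 lies 43.5 kb downstream of the start of Cd274, and the data show reads on one of these neighbours and none on the other in W1.

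The sequences around the starts of this pair and of Cmtm6 are shown with their CG pairs, which mark the promoters of many widely expressed genes. Each window runs from 250 bases before to 50 bases after the start in RefSeq on GRCm38.p6, 5′ to 3′ on the gene's own strand, with CG pairs in capitals. The windows are chr19:29367188-29367487 (plus strand) for Cd274, chr19:29410669-29410968 (plus strand) for Pdcd1lg2 and chr9:114730953-114731252 (plus strand) for Cmtm6.
Cd274: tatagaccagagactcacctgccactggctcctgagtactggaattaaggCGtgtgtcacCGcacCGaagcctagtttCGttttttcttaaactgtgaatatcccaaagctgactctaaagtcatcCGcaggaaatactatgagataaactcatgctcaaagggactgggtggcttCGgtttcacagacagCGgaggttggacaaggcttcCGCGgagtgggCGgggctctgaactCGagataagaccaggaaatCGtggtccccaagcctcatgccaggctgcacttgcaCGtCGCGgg
Pdcd1lg2: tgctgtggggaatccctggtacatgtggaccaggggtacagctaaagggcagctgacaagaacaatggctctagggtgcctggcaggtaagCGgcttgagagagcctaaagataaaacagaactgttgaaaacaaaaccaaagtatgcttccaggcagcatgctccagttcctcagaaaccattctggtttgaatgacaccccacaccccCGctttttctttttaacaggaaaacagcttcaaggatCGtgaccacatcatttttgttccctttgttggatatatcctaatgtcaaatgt
Cmtm6: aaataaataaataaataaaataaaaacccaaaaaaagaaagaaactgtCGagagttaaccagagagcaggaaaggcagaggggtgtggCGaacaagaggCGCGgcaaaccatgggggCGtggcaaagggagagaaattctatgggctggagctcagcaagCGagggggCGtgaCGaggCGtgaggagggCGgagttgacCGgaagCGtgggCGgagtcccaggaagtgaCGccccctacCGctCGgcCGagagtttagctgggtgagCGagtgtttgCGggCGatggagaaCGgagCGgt
The Cd274 window holds 15 CG pairs, the Pdcd1lg2 window 3 and the Cmtm6 window 22, against a median of 7 over the 32851 windows of the table. RefSeq windows were found for 9 of the 10 genes, all but Cd86. Cd276 had 39 CG pairs, Cd47 had 35 and 36 in its 2 windows, Nt5e 23, Nectin2 20, Vtcn1 5 and Cd80 3. Any relation of CG pairs to the reads of these genes was not tested. Of all windows in the table, 34.6% hold 15 or more CG pairs and 31.4% hold 3 or fewer. These windows were also searched on both strands for an interferon-stimulated response element, for the gamma-activated sequence of Stat factors and for an NF-kB motif. None of the 10 windows of the checkpoint genes held a match, while 3.44%, 8.30% and 5.56% of all windows did. That says only that these motifs, as searched, are not in these windows.

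The window of Cd274 also contains the start of its divergent neighbour Plgrkt, a plasminogen receptor gene on the minus strand, whose annotated start is at base 203 of the window. The starts of Plgrkt and Cd274 in GENCODE M21 are 65 bases apart. Plgrkt stood at 7.01 TPM (17 reads) in W1 and 0 reads in W2, so both genes of this divergent pair had reads in W1 alone. Plgrkt has 10 listed transcripts, against 1 for Cd274. Of the 10 protein-coding genes flanking Cd274 and Pdcd1lg2, 5 on either side, 2 were higher in W1 and 3 were higher in W2. Another 1 was within 2-fold and 4 were under 1 TPM in both. Since 34.7% of all compared genes were higher in W1 and 32.9% in W2, the counts of so few neighbours show no direction. The other gene higher in W1 was Ermp1, an endoplasmic reticulum protease, at 1.17 TPM (25 reads) and 0 TPM. Rcl1, Insl6 and Ranbp6 were higher in W2, at 24.7 and 87.8 TPM, 3.26 and 10.6 TPM, and 0.289 and 8.46 TPM in W1 and W2. Jak2, the kinase gene of the interferon gamma receptor that lies 115.6 kb upstream, was listed at 0 in both. The genes around Cd274 thus lay in both directions, as did the compared genes of the whole series.

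**Figure D2:**
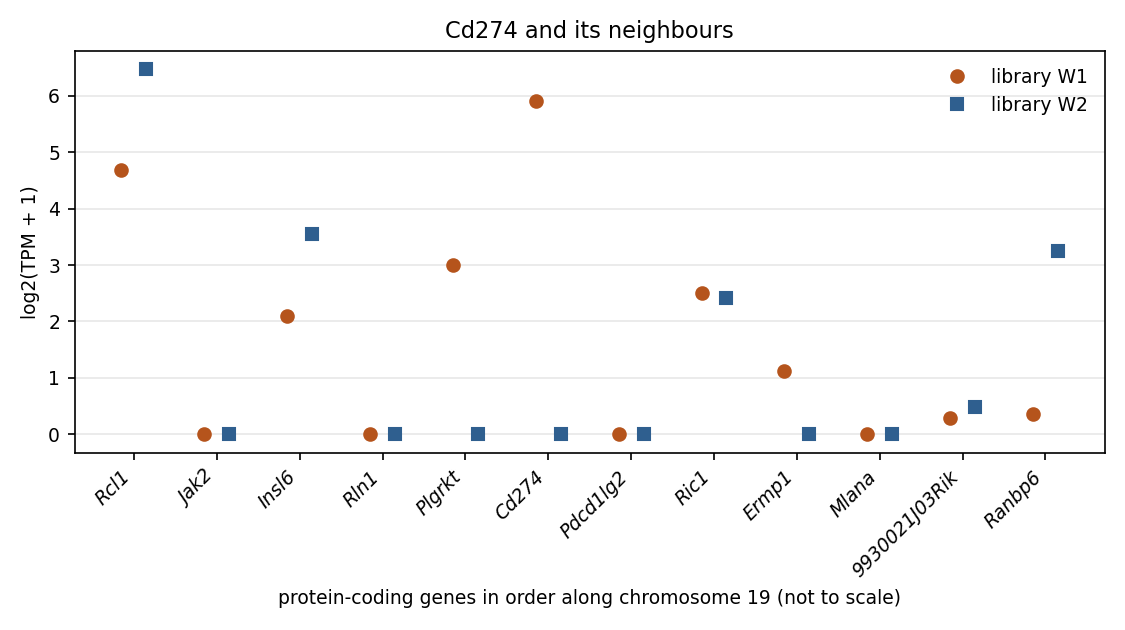
Cd274, Pdcd1lg2 and the 5 protein-coding genes on either side, in order along chromosome 19 and not to scale, as log2(TPM + 1) in W1 (circles) and W2 (squares). Cd274 at 59.1 TPM and Plgrkt at 7.01 TPM in W1 stand next to each other, and the neighbours further out lie in both directions.

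Cd80 and Cd86 encode the ligands that T cells read through Cd28 and Ctla4, and they are known mainly from antigen-presenting cells. Cd80 (ENSMUSG00000075122.5, chromosome 16, 38455561 to 38496335, plus strand) and Cd86 (ENSMUSG00000022901.13, chromosome 16, 36603869 to 36666081, minus strand) had 0 reads in both libraries on all 7 of their listed transcripts. Cd80-202 has 2000 50-mers of its own and Cd86-201 has 1621. The floor allows up to 0.312 TPM of Cd80-202 in W1 and 0.31 TPM in W2. For Cd86-201 it allows up to 0.39 TPM in W1 and 0.387 TPM in W2. These limits use the full transcript length and would be higher if reads shared between transcripts were not counted.

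Cd276 and Vtcn1, which encode the B7 relatives B7-H3 and B7-H4, had few reads, all in W2. Vtcn1 (ENSMUSG00000051076.8, chromosome 3, 100825459 to 100896922, plus strand) had 0 reads in W1 and 22 reads in W2, where it stood at 2.75 TPM (1.72 to 4.16). The floor of 3 reads in W1 corresponds to 0.378 TPM, and the measured level in W2 was 7.28 times that. This figure leaves out the interval in W2, so it is not a lower bound. The only listed transcript of Vtcn1 has 2573 of 2573 50-mers of its own. Cd276 (ENSMUSG00000035914.11, chromosome 9, 58524298 to 58555437, minus strand) had 0 reads in W1 and 15 in W2, at 1.365 TPM (0.764 to 2.25). All 15 reads were on Cd276-202, which has 417 50-mers of its own (11.7%), while the main coding transcript Cd276-201 has 0. Of these 417, 367 lie within the first 416 bases of the transcript, where it overlaps the exon of Gm10657 on the opposite strand. Gm10657, an unclassified transcript, had 0 reads in W1 and 29 in W2 (9.22 TPM), the same distribution. Unless the counting used strand, the reads of Cd276-202 within the overlap cannot be told from those of Gm10657, and the level of Cd276 itself is uncertain in both libraries.

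Cmtm6, whose product binds Pd-l1 and protects it from degradation in human cells, was nearly equal in the 2 libraries. The gene (ENSMUSG00000032434.9, chromosome 9, 114731116 to 114749344, plus strand) had 691 reads and 67.4 TPM (62.5 to 72.6) in W1 and 653 reads and 63.3 TPM (58.5 to 68.3) in W2. The ratio of W1 over W2 was 1.07 (0.956 to 1.19), which includes equality. All its reads were on Cmtm6-201, with 3131 of 3334 50-mers of its own. The log2 ratio of 0.09 lay between -0.20 without mitochondrial and ribosomal protein genes and 0.49 without Gm23935, so that its sign depends on the scaling. In W1, Cmtm6 and Cd274 had overlapping intervals of level, and in W2 Cmtm6 was present where Cd274 had no read.

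Cd47 and Nectin2 were the most abundant of the 10 genes in W1 and were each about 4-fold higher there. Cd47, the ligand of Sirpa on macrophages that holds off phagocytosis (ENSMUSG00000055447.19, chromosome 16, 49800533 to 49915010, plus strand), stood at 216 TPM (209.2 to 223.7, 3432 reads) in W1 and 51.8 TPM (48.4 to 55.5, 830 reads) in W2. The intervals of the 2 libraries do not overlap. Nearly all reads fell on Cd47-201, 3429 of 3432 in W1 and 830 of 830 in W2, and its level was 4.16-fold higher in W1 (3.85 to 4.49). The remaining reads in W1 were 2 on Cd47-202 and 1 on Cd47-203. The 9 shorter isoforms hold between 0 and 799 50-mers of their own, against 3877 for Cd47-201.

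Nectin2, an adhesion molecule that engages Cd226 and inhibitory receptors on T and natural killer cells (ENSMUSG00000062300.14, chromosome 7, 19716644 to 19750483, minus strand), summed to 308 TPM (2082 reads) in W1 and 73.5 TPM (473 reads) in W2. It was the only one of the 10 genes with many reads on more than 1 transcript, and the transcripts differed in their ratios. Nectin2-201, with 1590 coding bases, stood at 108.2 TPM (897 reads) in W1 and 14.5 TPM (121 reads) in W2, 7.46-fold higher in W1 (6.17 to 9.10). Nectin2-202, with 1401 coding bases, stood at 200.04 TPM (1185 reads) in W1 and 59.0 TPM (352 reads) in W2, 3.39-fold higher in W1 (3.01 to 3.83). The intervals of these ratios do not overlap. Nectin2-201 took 43.1% of the gene's reads in W1 (40.9 to 45.2, Clopper-Pearson) and 25.6% in W2 (21.7 to 29.8). Per 1000 50-mers of its own, Nectin2-201 had 602.8 reads in W1 and 81.3 in W2, and Nectin2-202 had 1674 and 497.2. Nectin2-202 was the leading form in both libraries on either measure. The antisense gene Gm20512 overlaps 135 bases of Nectin2-201 and 0 of Nectin2-202, and it stood at 31.5 TPM (59 reads) and 29.2 TPM (55 reads) in W1 and W2.

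**Figure D3:**
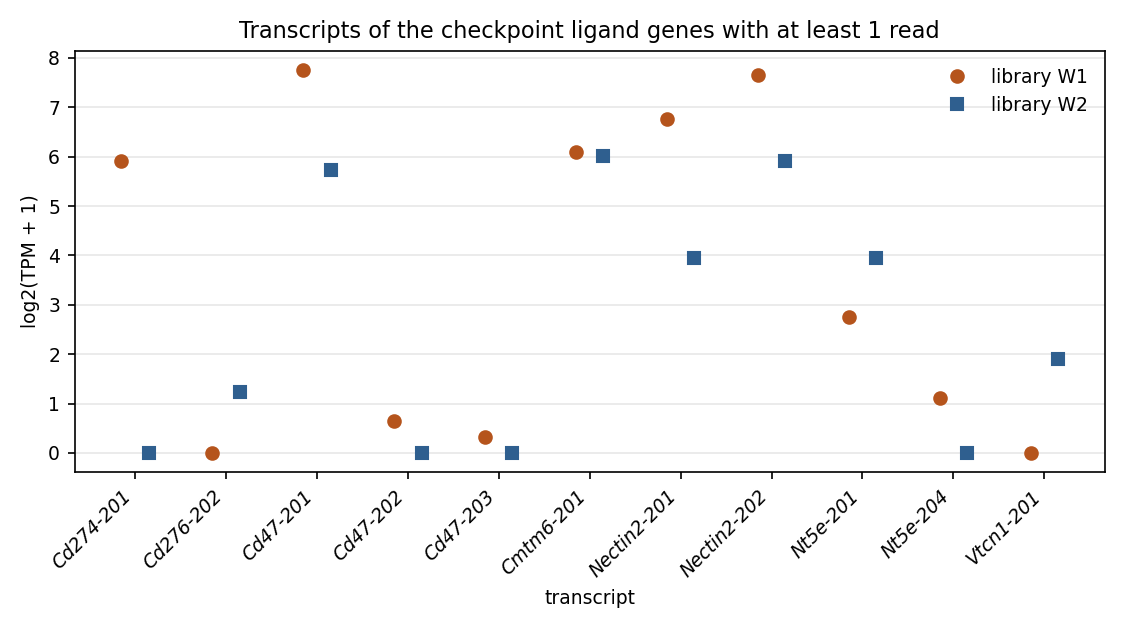
The 11 transcripts of the 10 genes that had at least 1 read, as log2(TPM + 1) in W1 (circles) and W2 (squares). The gap between the libraries is wider for Nectin2-201 (108.2 and 14.5 TPM) than for Nectin2-202 (200.04 and 59.0 TPM), and Cd47 rests on Cd47-201.

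Nt5e encodes Cd73, the surface enzyme that makes adenosine, an inhibitor of T cells, from AMP. It was lower in W1, at the edge of the 2-fold rule. The gene (ENSMUSG00000032420.8, chromosome 9, 88327197 to 88372092, plus strand) stood at 6.88 TPM (5.36 to 8.69, 70 reads) in W1 and 14.4 TPM (12.4 to 16.7, 176 reads) in W2, with a log2 ratio of -0.97. One read in W1 fell on the 280-base transcript Nt5e-204 and alone made 1.18 of the 6.88 TPM. On the coding transcript Nt5e-201 the levels were 5.70 TPM (69 reads) in W1 and 14.4 TPM (176 reads) in W2, 2.53-fold lower in W1 (1.91 to 3.40). On that transcript alone the log2 ratio was -1.20, past 2-fold, so the call depends on a single read, and it also depends on the scaling.

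**Figure D4:**
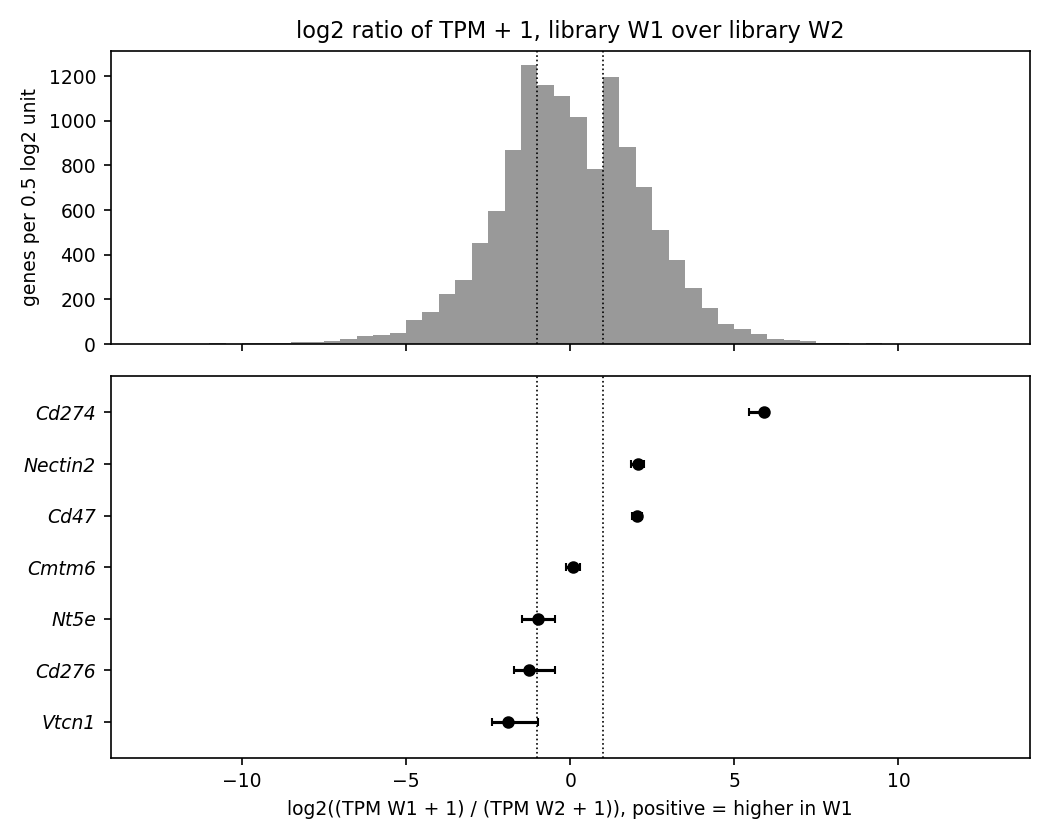
Top, the log2 ratios of TPM + 1 in W1 over W2 of all 12587 compared genes, in bins of 0.5. Bottom, the same ratio for the 7 compared checkpoint genes, with bars that combine the exact 95% limits of both libraries. Dotted lines mark 2-fold. Cd274 lies at 5.91, Nectin2 and Cd47 at 2.05 and 2.04, and Cmtm6 at 0.09, near the middle of all genes.

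The order of levels could be read only with the caution that isoforms share sequence and that the counting of shared reads is not stated. In W1 it was Nectin2, Cd47, Cmtm6, Cd274 and Nt5e, with 0 reads on the other 5 genes. The intervals of Cmtm6 and Cd274 overlapped, and those of the other neighbours did not. In W2 the order was Nectin2, Cmtm6, Cd47, Nt5e, Vtcn1 and Cd276. There the intervals of Nectin2 (67.0 to 80.5 TPM) and Cmtm6 overlapped, as did those of Vtcn1 and Cd276.

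Receptors of the ligands, and of the adenosine that Nt5e makes, were listed next, with none for Cd276 or Vtcn1. Of 12 receptor genes, 7 had 0 reads in both libraries, among them Pdcd1 (Pd-1), Sirpa, Tigit and Pvrig. Across the series only 15809 of 54438 genes had reads, so being unread is not particular to these receptors. Of 5 receptors compared, 3 were higher in W1 and 2 in W2, with a median log2 ratio of 1.20. Beside this stand 34.7% of all compared genes toward W1 and 32.9% toward W2, and so few receptors show no direction. Cd226, the activating receptor of Nectin2, stood at 12.0 TPM (91 reads) in W1 and had 0 reads in W2. Lymphocyte markers had few reads in both libraries except Cd79a, whose values are given above, and the part of lymphocytes was not tested. Ctla4 (4.10 TPM, 24 reads) and Cd28 (1.29 TPM, 17 reads), the receptors of Cd80 and Cd86, also had reads in W1 and 0 in W2. Receptors for adenosine were read in W2, where Adora2a stood at 4.29 TPM (34 reads) and Adora2b at 2.49 TPM (14 reads), with 0 reads on either in W1. These last 4 receptors fall below the 5 TPM set for naming genes and were named after their values were seen.

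Other inhibitory and co-stimulatory ligands were found in both directions. Of 24 genes, 9 were compared, 3 higher in W1, 5 higher in W2 and 1 within 2-fold, with a median log2 ratio of -1.42, against 34.7% of all compared genes toward W1 and 32.9% toward W2. With so few genes, of which Lgals9 was called on 3 reads in W1, the counts show no direction of the list. The nectin family was divided. Pvr, which shares receptors with Nectin2, stood at 102.9 and 76.1 TPM in W1 and W2, within 2-fold, while Nectin1 stood at 8.58 and 36.8 TPM and Nectin3 at 6.25 and 26.9 TPM. Nectin1 was 4.29-fold and Nectin3 4.30-fold lower in W1, opposite to Nectin2. The co-stimulatory ligand Tnfsf9 (4-1BB ligand) stood at 12.0 TPM in W1 and 386 TPM in W2, 32.1-fold lower in W1 (24.0 to 43.9). Cd70, another co-stimulatory ligand, had 0 reads in W1 and 78 reads (30.4 TPM) in W2. Cd200, which calms myeloid cells, stood at 17.0 and 4.58 TPM, from 20 and 7 reads.

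Genes that feed the adenosine route of Nt5e were divided. Of 12 genes, 4 were higher in W1, 3 were higher in W2 and 5 were under 1 TPM in both, with a median log2 ratio of 1.55. Among all compared genes 34.7% were higher in W1 and 32.9% in W2, so these counts show no direction of the list. Bst1, named here for its low level, was called higher in W1 at 2.66 and 0.23 TPM (23 and 2 reads). Entpd1 (Cd39), which makes the AMP that Nt5e uses, stood at 24.4 and 6.64 TPM in W1 and W2, 3.68-fold higher in W1 (2.84 to 4.80), opposite in direction to Nt5e. Cd38 was 3.06-fold higher in W1 (46.3 and 15.1 TPM), and Ada, which breaks adenosine down, stood at 8.21 TPM in W1 with 0 reads in W2. Alpl, a phosphatase that can also act on AMP, stood at 1.38 TPM (3 reads) in W1 and 249.8 TPM in W2. Enpp1 had 0 reads in W1 and 186 (8.997 TPM) in W2, and adenosine kinase, Adk, stood at 9.16 and 23.5 TPM.

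The family of Cmtm6 and genes that process Pd-l1 or Cd47 protein were compared for 15 of 17 genes. Of these 6 were higher in W1, 2 were higher in W2 and 7 were within 2-fold, with a median log2 ratio of 0.25. The corresponding shares of all compared genes were 34.7% toward W1 and 32.9% toward W2, and no test of the list was made. Zdhhc9 and Cops5, named here for their few reads, were called higher in W1 on 5 and 0 reads and on 20 and 4 reads. Of the compared relatives of Cmtm6, Cmtm3 and Cmtm8 were higher in W1, Cmtm4 was higher in W2 and Cmtm7, named here after its value was seen, was within 2-fold. Cmtm3 stood at 125.0 and 9.94 TPM in W1 and W2 (12.6-fold higher in W1, 9.38 to 17.2), and Cmtm8 at 20.8 and 0.924 TPM. Cmtm4, which can stand in for Cmtm6 in human cells, stood at 3.24 and 11.4 TPM, 3.53-fold lower in W1 (2.73 to 4.61). Qpctl, which modifies Cd47 so that Sirpa can bind it, stood at 5.88 TPM (48 reads) in W1 with 0 reads in W2. Zdhhc3, a palmitoyltransferase, stood at 7.39 TPM and 0 reads. Hip1r stood at 5.88 TPM in W1 and 15.8 TPM in W2. Among those within 2-fold, Gsk3b stood at 19.3 and 18.2 TPM, Cop1 at 9.27 and 7.67 TPM, Stt3a at 45.2 and 37.7 TPM and Trappc4 at 5.34 and 6.99 TPM. The reads of Cop1 went the other way from its TPM, with 74 in W1 and 121 in W2.

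The interferon and Jak-Stat genes known to act on Cd274 were read unevenly. Of 17 genes, 9 were compared, 4 higher in W1, 2 higher in W2 and 3 within 2-fold, with a median log2 ratio of 0.97. With 67.6% of all compared genes past 2-fold, 34.7% toward W1 and 32.9% toward W2, these counts are near the share of all genes. Irf2, named here for its few reads, was called higher in W2 on 1 read in W1 and 2 in W2. Ifng, Ifngr1, Jak2 and Irf1 had 0 reads in both libraries. Each has 2 or more listed transcripts, and how reads shared between transcripts were counted is not stated. Jak1 stood at 709.1 TPM in W1 and 136.2 TPM in W2, 5.21-fold higher in W1 (4.96 to 5.47). Stat3 was at 18.1 and 1.74 TPM (87 reads and 26), Stat2 at 8.69 and 0.714 TPM (19 reads and 1), and the phosphatase gene Ptpn2, which dampens this route, at 21.4 TPM in W1 with 0 reads in W2. The reads of Stat3 differed less than its TPM. TPM also depends on the lengths of the transcripts that were read, and these were not examined for Stat3. Ifnar1 was lower in W1, at 5.36 and 18.4 TPM. Ifnar2 (13.2 and 6.25 TPM) and Socs3 (409.8 and 512.3 TPM) were within 2-fold. Endothelial markers were higher in W1, as were Jak1, Stat2, Stat3 and Ptpn2, and their part was not tested.

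Other regulators named for Cd274 were also found in both directions. Of 13 genes, 11 were compared, 3 higher in W1, 1 higher in W2 and 7 within 2-fold, with a median log2 ratio of 0.57. The 4 of 11 past 2-fold stand beside 67.6% of all compared genes, and no test of the list was made. Nfkb1 (17.9 and 3.10 TPM) and Hif1a (21.5 TPM from 52 reads in W1, and 0 reads in W2) were among those higher in W1. Rela, the other subunit of the common NF-kB dimer, was 2.18-fold lower in W1 (101.2 and 220.6 TPM). Jun (197.4 and 275.8 TPM), Myc (14.1 and 8.74 TPM, from 28 and 18 reads), Cdk4 (69.0 and 98.5 TPM) and the NF-kB inhibitor gene Nfkbia (932.4 and 629.2 TPM) were within 2-fold.

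**Figure D5:**
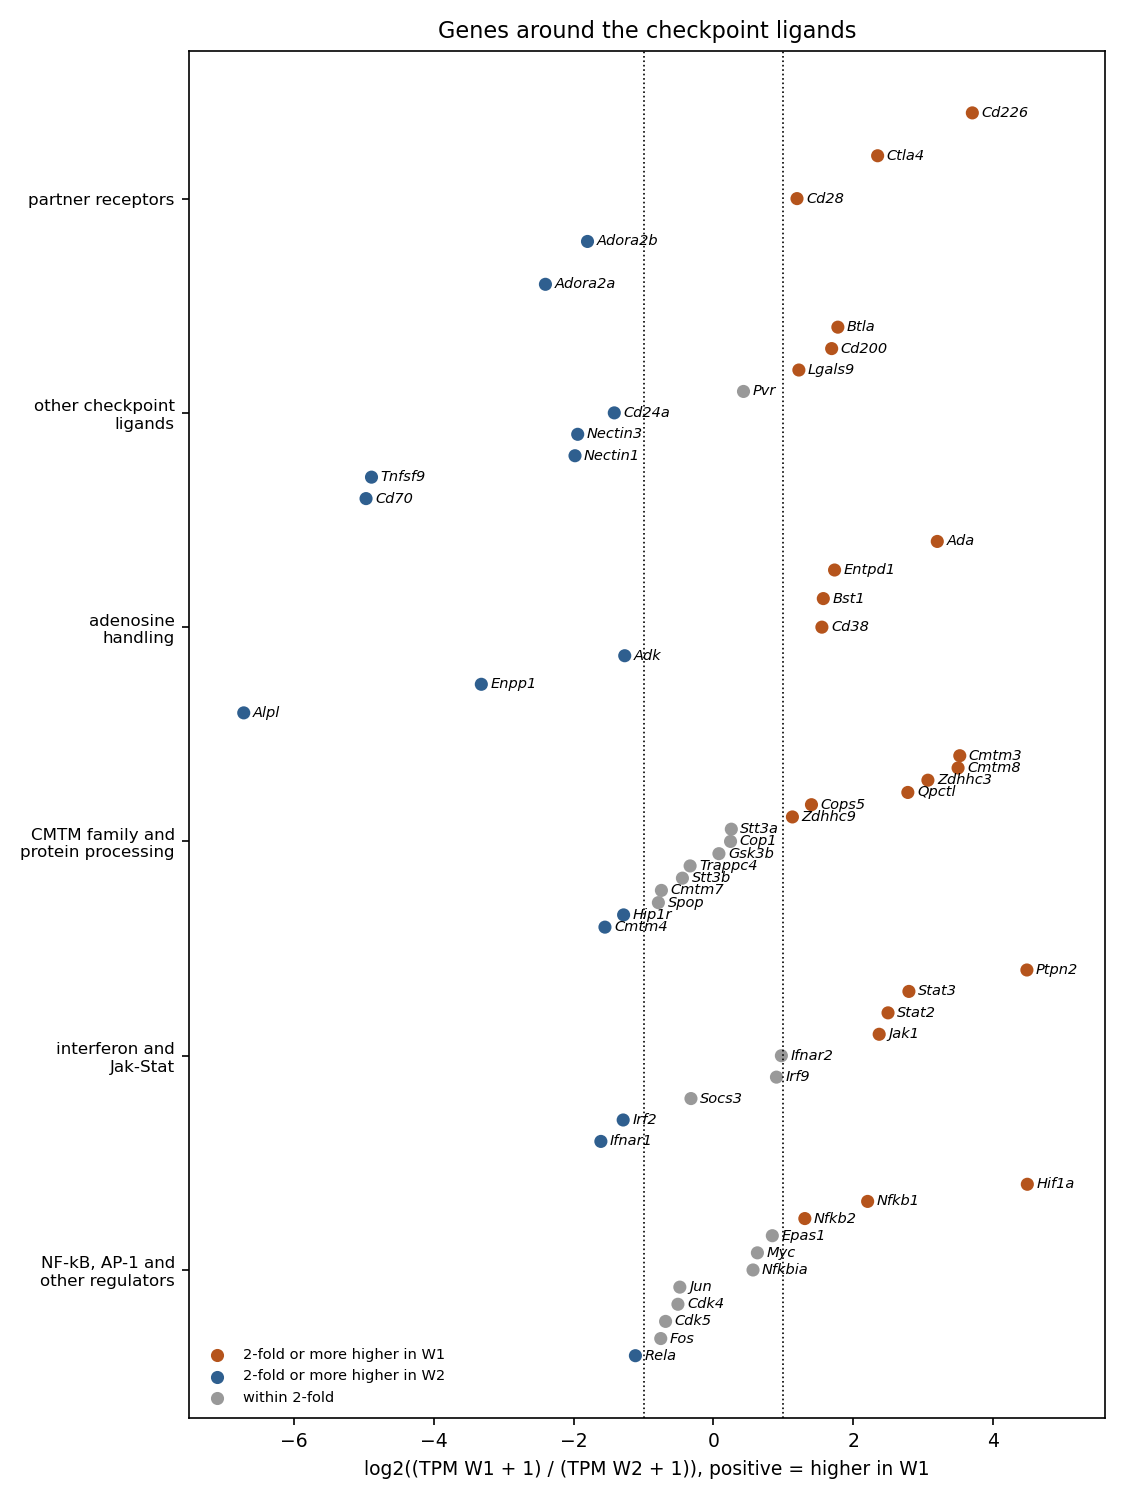
The log2 ratio of TPM + 1 in W1 over W2 for each compared gene of 6 lists around the checkpoint ligands, 1 dot per gene, with dotted lines at 2-fold. Each list has genes on both sides, from Alpl at -6.72 to Hif1a at 4.49.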

How the data were processed

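The authors deposited TPM and FPKM per transcript for 137767 Ensembl transcripts in W1 and W2. Bowtie 0.12.2 and the builds mm8 and GRCm38 appear, per the submitters' processing notes, without a stated role or order. The sources used here name no counter or annotation and do not say whether strand was used. The deposited TPM values were the deposited FPKM values multiplied by 1.00852 (W1) and 1.24567 (W2). Identifiers were matched to GENCODE M21 (GRCm38), which may not be the authors' annotation: 137654 matched, and the 113 others held 0.025% and 0.0066% of TPM. Transcripts were summed per gene. FPKM times annotated length fell on whole multiples of the value of 1 read for 98.47% and 98.05% of transcripts above 0 (tolerance 0.1 read), which gave reads and depth. These steps were tested on simulated data built with the same lengths, with changes only in well-read transcripts. Errors of annotation, of shared reads or of calls at low counts could not show there.

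Genes at 1 TPM or more in a library were compared with a pseudocount of 1 and a 2-fold rule. Ratio intervals are exact Clopper-Pearson at 95%. Both libraries stayed unassigned to a Pd-l1 class. How reads shared by transcripts were counted is not stated, so 50-mers in no other listed transcript are given. Members and lists were chosen with earlier results of these data known. One gene of a list is not reported here and was left out of that list's counts. All 10 members are named; from each list, genes at 5 TPM or more, up to 4 in each direction and up to 4 nearest to equal, and the 5 genes nearest to Cd274 in log2(TPM + 1), passing over predicted genes, ribosomal protein genes and pseudogenes. Alternatives were other pseudocounts, filters, scalings, units and single transcripts. Python 3.11.15 was used with pandas 2.3.3 and numpy 2.4.6 for tables, scipy 1.17.1 for intervals and matplotlib 3.10.9 for plots.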

Additional observations from a re-analysis of the deposited data

How the results depend on the processing

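With 1 library of each title, no replicate could be left out. No paired analysis was possible because the labels give no groups and no shared replicate numbers. The count of checkpoint genes higher in W1 stayed at 3 under all 10 alternatives. The count higher in W2, 2 as reported, dropped out at a pseudocount of 5 (0 genes) and was 1 when 20 or more reads in a library were required, where Cd276 was not compared. It was 3 with a pseudocount of 0.1, with the main transcript only and without mitochondrial and ribosomal protein genes, where Nt5e passed 2-fold. The share of all compared genes past 2-fold, 67.63% as reported, was 36.71% with a pseudocount of 5. No checkpoint gene that was past 2-fold changed direction. Of 69 values for single genes, 5 changed their call, on Nt5e, Vtcn1 and Cd276. Scaling moved the median log2 ratio of all compared genes from -0.07 to between -0.32 (without mitochondrial and ribosomal protein genes) and 0.37 (without Gm23935, an alternative chosen after seeing the data). Relative to that median, over the 10 alternatives, Cd47 lay between 1.95 and 2.29, Nectin2 between 1.87 and 2.30, Cmtm6 between 0.00 and 0.34 and Nt5e between -1.24 and -0.66. Genes with 0 reads in a library moved most with the pseudocount: Cd274 lay between 3.73 and 9.29, Vtcn1 between -4.76 and -0.58 and Cd276 between -3.80 and -0.30. Depth limits Vtcn1 and Cd276, with 22 and 15 reads.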
